A study of Mus musculus with 8 samples.

Results

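Distal H3K27ac peaks that lay in dense runs along the chromosomes of mouse epidermis were examined. A peak was called distal when it overlapped no H3K4me3 peak, and distal neighbours were joined into a chain wherever the gap between them was at most a fixed distance, set between 12 and 13 kb. The 617 peaks in chains of 5 or more, called members below, made up 107 chains. They were taken from 12654 distal peaks among 30148 H3K27ac peaks on chromosomes 1 to 19. The members were chosen by the positions of the H3K27ac and H3K4me3 peaks, so density, span and height describe the selection and were not tested. Chromosome X lay outside the selection.

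All libraries came from wild-type mice at postnatal day 0.5. Back skin was digested with dispase, the epidermis was peeled from the dermis, and trypsin released the single cells of the total epidermis. Of 8 samples with 6 antibodies, peak lists of 4 were used here, namely H3K27ac, H3K4me3, Rfx2 and MOF, with 1 list for each antibody. MOF was mapped by ChIPseq on fixed, sheared chromatin, and the others by Cut&Run, in which chromatin around a bound antibody is cut loose by a tethered nuclease. The lists have no replicate, and total epidermis mixes basal cells, differentiating cells and hair follicle cells, so a peak cannot be assigned to one of them. H3K4me3 lay at the promoters of 24 of 27 genes for epidermal transcription factors, 6 of 12 keratins and 13 of 26 cornified envelope and barrier genes. The marked keratins were Krt5, Krt14, Krt15, Krt16, Krt17 and Krt80. Krt1 and Krt10, keratins of the differentiating layers, had no H3K4me3, and neither had Krt2, Krt77, Krt6a and Krt6b. H3K4me3 also lay at 2 of 11 endothelial markers, 2 of 13 Langerhans and T cell markers, 6 of 13 dermal fibroblast markers, 5 of 10 melanocyte markers and 5 of 10 Merkel and neural markers. The last 5 include Ptpn11, which was matched to the entry Syp and is not a Merkel or neural marker.

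Acetylation of histone H3 at lysine 27 marks active promoters and enhancers, while trimethylation at lysine 4 marks promoters. Runs of closely spaced acetylated elements are often called clustered or super-enhancers, and in many tissues they lie near genes of cell identity. Here, no ranking of total signal against background, as used for that name, was applied, so the runs are called chains only. MOF is the acetyltransferase of lysine 16 of histone H4. Rfx2 is a transcription factor of the RFX family, which is known for ciliary genes.

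The summits of the leading chains are shown first, because they are the sequence under the member of highest fold in each chain, which need not be the member with the most fragments. Each is 151 bases of GRCm38.p6, the assembly behind mm10, plus strand, 5′ to 3′, with 75 bases on either side of the summit of the member with the highest fold. The 6 chains rank 2 to 7 by summed fold and are named by the gene with the nearest transcription start site (TSS). The first chain, at Zfp532, is not among the sequences. Capitals mark matches, on either strand, to one of 11 motifs that are listed with their shares further on.
Arid1b chain (chr17:5150842-5150992): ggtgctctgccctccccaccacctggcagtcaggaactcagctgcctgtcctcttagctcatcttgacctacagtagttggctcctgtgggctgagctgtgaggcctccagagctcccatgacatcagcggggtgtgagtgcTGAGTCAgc
Gas7 chain (chr11:67568861-67569011): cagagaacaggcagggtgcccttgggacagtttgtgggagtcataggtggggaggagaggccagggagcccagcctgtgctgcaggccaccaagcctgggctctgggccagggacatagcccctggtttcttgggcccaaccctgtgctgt
Kank1 chain (chr19:25330849-25330999): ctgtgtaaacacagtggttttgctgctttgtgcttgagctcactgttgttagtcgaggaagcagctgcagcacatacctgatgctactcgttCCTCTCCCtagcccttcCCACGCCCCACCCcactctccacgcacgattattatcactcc
Sipa1l3 chain (chr7:29461614-29461764): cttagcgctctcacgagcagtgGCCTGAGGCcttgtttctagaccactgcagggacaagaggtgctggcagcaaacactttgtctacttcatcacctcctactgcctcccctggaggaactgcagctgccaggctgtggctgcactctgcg
Plb1 chain (chr5:32385426-32385576): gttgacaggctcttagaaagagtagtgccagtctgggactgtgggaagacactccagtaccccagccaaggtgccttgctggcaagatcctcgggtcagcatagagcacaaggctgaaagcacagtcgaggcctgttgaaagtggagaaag
Medag chain (chr5:149381581-149381731): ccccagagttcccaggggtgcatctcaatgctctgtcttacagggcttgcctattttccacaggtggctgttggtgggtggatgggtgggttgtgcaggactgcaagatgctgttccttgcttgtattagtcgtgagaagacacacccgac
The Arid1b summit held 1 match, to the AP-1 motif, and the Sipa1l3 summit held 1, to the AP-2 motif. In the Kank1 summit there were 3 KLF matches, the last 2 of which overlapped. No match to any of the 11 motifs was found in these 151 bases at the Gas7, Plb1 and Medag summits.

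The chains were mostly short and sparse. Of 107 chains, 63 held 5 peaks, 22 held 6, 15 held 7 and 7 held 8 to 11. Their span ran from 8.68 to 58.3 kb with a median of 26.9 kb, and the members covered a median of 9.06% of it. The median gap within a chain was 5.60 kb for the median chain. Together the chains spanned 3.09 Mb, of which 0.274 Mb was covered by members. They lay on every one of the 19 chromosomes, from 2 on chromosomes 8, 9 and 19 to 10 on chromosome 4. At the limit of the rule, the 63 chains of 5 peaks had a median summed fold of 20.3 and a median span of 25.2 kb, and the 157 chains of 4 peaks just outside it had 16.7 and 18.7 kb.

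Summed fold, the sum over a chain of each member's fold enrichment at its summit, was 22.3 in the median chain and ran from 13.6 to 47.9. It fell steeply over the first 5 chains and slowly after them, and the first 12 chains held 17.2% of the summed fold of all chains. No single peak carried a chain: the highest member held 13.7 to 35% of its chain's summed fold, and the highest fold of a chain was 1.15 to 2.99 times its lowest.

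**Figure D1:**
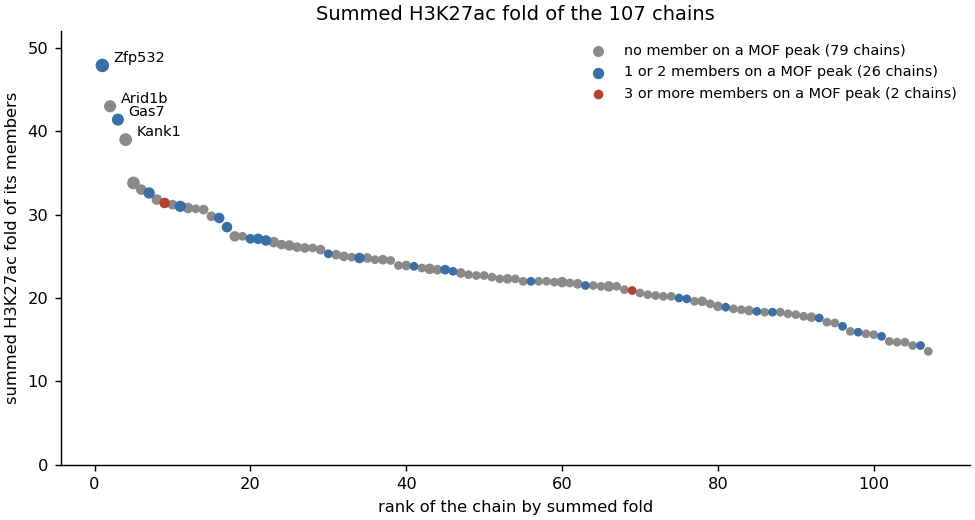
Summed H3K27ac fold of each of the 107 chains (vertical axis, no unit) against its rank (horizontal axis), with larger points for more peaks and colour for the number of members on a MOF peak. The 4 leading chains, at 39.0 to 47.9, stand above the rest, and chains with MOF are spread over the whole range.

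The first chain lay at Zfp532, which encodes a zinc finger protein. It covered chr18:65573062-65627393 with 11 members, the most of any chain, and a summed fold of 47.9. It ran across annotated starts of Zfp532 and 2 H3K4me3 peaks, and 9 of its members were intronic. Member folds ran from 2.56 to 7.06. A member 1.64 kb from a start of Zfp532 had 70 fragments at its summit, the highest count in the chain, and overlapped a MOF peak.

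The next 3 chains were long runs in or around single genes. At Arid1b, which encodes a subunit of the BAF chromatin remodelling complex, 9 members across chr17:5118181-5173425 had a summed fold of 43.0. All 9 were intronic, the nearest TSS lay 123 kb away, and no MOF or H3K4me3 peak lay in the span. Gas7, a gene for a membrane-binding protein of the cytoskeleton, had 9 members across chr11:67523763-67582064 with a summed fold of 41.4. Its TSS lay inside the chain, yet the span held no H3K4me3 peak, and the nearest H3K4me3-marked promoter was Usp43 at 340 kb. This chain held 3 MOF peaks, of which 1 touched a member. Kank1, which encodes an adaptor of cell adhesions, had 10 intronic members across chr19:25286182-25342549 with a summed fold of 39.0 and neither MOF nor H3K4me3.

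Sipa1l3, a gene of the Rap GTPase-activating family, contained 10 members across chr7:29432963-29490323 with a summed fold of 33.8. Its span held 3 H3K4me3 peaks and 1 MOF peak, and no member was on the MOF peak. The 3 members of highest count, with 32, 36 and 44 fragments, lay close to these H3K4me3 peaks and had folds of only 2.69, 2.41 and 3.02.

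**Figure D2:**
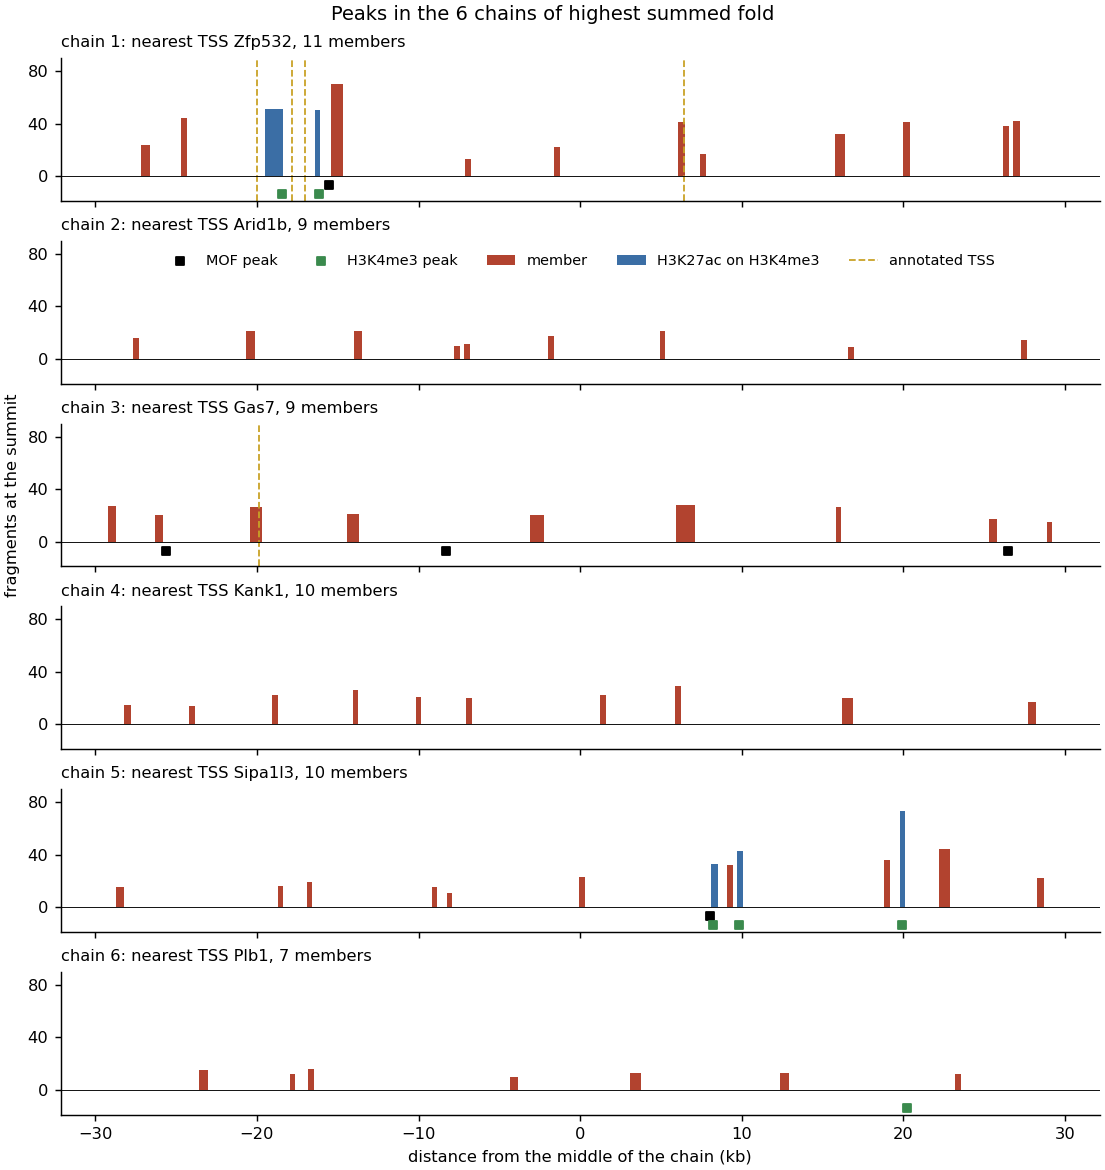
Peaks of the 6 chains with the highest summed fold. The horizontal axis is the distance from the middle of each chain in kb, the vertical axis the fragments at the H3K27ac summit, bars are H3K27ac peaks drawn at least 0.35 kb wide, squares below zero mark MOF and H3K4me3 peaks, and dashed lines mark annotated TSSs. Members of the Zfp532 chain reach 70 fragments, while those of the Plb1 chain stay between 10 and 16.

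The chains ranked 6 to 12 by summed fold had values of 30.8 to 33.0. They were nearest to Plb1, Medag, Actl7b, Pisd-ps1, Supt20, Cryaa and Gm51292. The Plb1 chain (chr5:32378529-32425747) had 7 intergenic members of 10 to 16 fragments. The Medag chain (chr5:149367828-149403904) had 8 intergenic members, of which 2 lay on the same MOF peak. A chain of 7 members at chr4:56204836-56239696 was the most isolated, with the nearest TSS, Actl7b, 502 kb away. The Supt20 chain (chr3:54525178-54565198) and the Cryaa chain (chr17:31728872-31778342) were intergenic, 128 and 50.9 kb from a TSS. The twelfth chain, chr5:31941961-31983523, lay inside the gene Babam2, with 7 intronic members.

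The chain near Pisd-ps1, a pseudogene, stood apart from all others. Its span was chr11:3127105-3153410, and on average 80.7% of the 31-base words in its 7 members occurred elsewhere in the genome as well, against at most 6.35% in any other chain. Reads from such words cannot be placed with certainty. This chain also held the most MOF, on 5 of its 7 members, so MOF shares, density and scores are given with and without it.

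Fold is a ratio, and both of its parts could be recovered. The peak caller wrote fold as (fragments at the summit + 1) over (local background + 1), and a p-value from the same numbers, and for all 30148 H3K27ac peaks 1 whole count of fragments met both values within 0.0001 in −log10 p. Members had more fragments and less fold than solitary distal peaks, meaning the 6766 distal peaks with no distal neighbour within the joining distance. The median summit held 22 fragments in members (quartiles 16 and 31), 17 in chains of 2 to 4 and 13 in solitary peaks (quartiles 10 and 18). The local background used by the caller was 4.67 fragments for the median member, 3.14 in chains of 2 to 4 and 1.89 for solitary peaks. Median fold ran the other way, at 3.87, 4.16 and 4.45, and median −log10 q was 5.76, 5.22 and 4.75. Median width was similar, at 383, 369 and 368 bp. Peaks in chains of exactly 4 had a median of 20 fragments and those in chains of exactly 5 had 22, so the step at the limit was small. A control library is not given in the sources used here. If the background came from the same library, fragments of neighbouring peaks could enter it and lower the fold of a peak in a dense chain. Whether they did so was not tested. These values are part of the selection and carry no test.

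**Figure D3:**
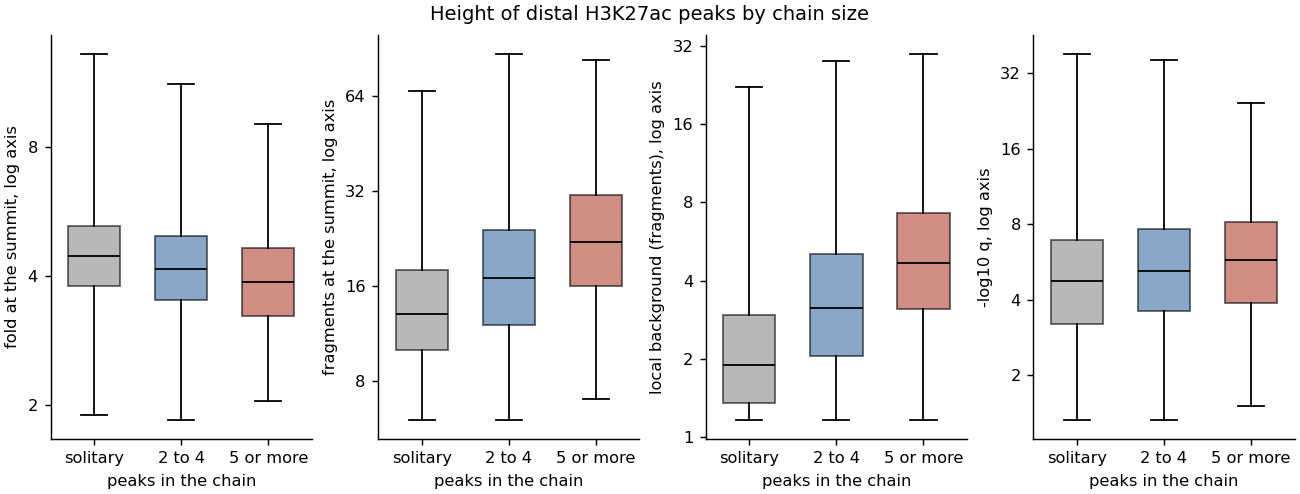
Height of distal H3K27ac peaks with no neighbour, in chains of 2 to 4 and in chains of 5 or more. Boxes show the median and quartiles and whiskers the lowest and highest peak, all on log axes, for fold, fragments at the summit, local background in fragments and −log10 q. Median fold falls from 4.45 to 3.87 with chain size while the median count rises from 13 to 22.

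Ranking the chains by summed fragments changed which came first. Only 5 chains were among the first 12 on both scales, namely those of Zfp532, Gas7, Kank1, Sipa1l3 and Cryaa. The Zfp532 chain stayed first with 384 fragments. Second was a chain of 7 peaks at chr17:83872803-83902511, near the noncoding gene 1810073O08Rik, with 326 fragments and a summed fold of 24.8. The third was the Krt17 chain with 282 fragments, which ranked 66 by summed fold. The last chain by summed fold, at 13.6, spanned the starts of Cirbp and Midn and ranked 6 by fragments, with 224. In contrast, the Arid1b chain, second by fold, ranked 47 with 140 fragments, and the Plb1 chain, sixth by fold, ranked 91 with 91 fragments. These additional chains were named after their values were seen.

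The 8 members of highest fold had 7.07 to 9.02. The first was an Arid1b intron peak, chr17:5150747-5151058, whose fold of 9.02 came from 21 fragments over a background of 1.44. A peak 22.6 kb from Rapgef4, an activator of Rap GTPases, followed at 8.74, again with 21 fragments over 1.52. An intronic peak of Ankrd55 had 7.93, and an intergenic peak 128 kb from Supt20 had 7.55. The others lay nearest to the starts of 4933407E24Rik, Edaradd, Pisd-ps1 and 4930578I06Rik. Edaradd encodes the adaptor of the ectodysplasin receptor of hair and tooth development, and the peak lay 25.2 kb from its TSS with 35 fragments. None of the 8 overlapped a MOF peak. The Pisd-ps1 peak had 82.0% repeated words.

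Members lay in exons less often than solitary peaks. Of 617 members, 336 (54.5%, 95% exact interval 50.4 to 58.4) had their centre in an intron of a curated RefSeq transcript, 10 (1.62%, 0.780 to 2.96) in an exon and 271 (43.9%) between genes. For solitary peaks these shares were 49.3%, 4.85% and 45.8%. The difference was 5.12 percentage points for introns (95% Newcombe interval 1 to 9.19) and −3.23 for exons (−4.14 to −1.80). Members of one chain often share a gene and are not independent, so intervals were also computed with the chain as the unit. With the chain as the unit the intron interval ran from −3.43 to 13.7, which includes 0, and the exon interval from −4.32 to −2.13. On protein-coding transcripts alone 48.9% of members were intronic and the difference was 2.08 points (−2.02 to 6.19), so a higher intron share was not established. The exon interval included 0 in the smaller sets at a gap of 5 kb (−4.84 to 8.47), in chains of 8 or more (−5.39 to 0.754) and in the higher 50% of H3K27ac peaks by q (−4.58 to 20.5). All intervals cover counting error only.

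The TSS nearest to a member lay 30.0 kb away at the median, against 24.9 kb for solitary peaks. Over 50 kb from any TSS lay 34.7% of members against 30.3% of solitary peaks, a difference of 4.40 points (Newcombe interval over peaks 0.586 to 8.39). Neighbouring members share much of their distance to a TSS, and this interval was not computed with the chain as the unit. A TSS lay within 2.5 kb of 36 members (5.83%), against 7.64% of solitary peaks. That difference was −1.81 points, with an interval that included 0 (−3.53 to 0.416). By whole chains, 42 of 107 lay within the body of 1 gene, 33 touched no gene body, 27 (25.2%, exact interval 17.3 to 34.6) spanned a TSS and 61 spanned at least 1 H3K4me3 peak. A chain could pass over a promoter because H3K4me3-positive peaks were removed before chaining: 90 such H3K27ac peaks lay within the spans. Within 50 kb of a TSS with H3K4me3 lay 64 chains, and 27 chains had no annotated TSS at all within 50 kb. Neighbouring chains were rarely close, with at most 25 kb between them in only 2 cases. One was the pair of chains inside Nsf, which encodes a membrane fusion ATPase and neighbours Wnt3, with 13.6 kb between them. In the other, 17.3 kb lay between a chain across the start of Pou3f1, the gene of a POU-domain transcription factor, and a chain beside it. In each pair, joining would have made 1 chain of 13 peaks.

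MOF lay on few members, and no difference from other distal peaks was detectable. Of 617 members, 41 overlapped a MOF peak by at least 1 bp (6.65%, exact interval 4.81 to 8.91). The share was 6.17% in chains of 2 to 4, 6.49% in solitary peaks and 6.36% over all 12654 distal peaks. It was 36.6% for H3K27ac peaks on H3K4me3. Members and solitary peaks differed by 0.157 points (Newcombe interval −1.66 to 2.47, and −2.47 to 2.78 with the chain as the unit), while members lay 30.0 points below peaks on H3K4me3 (27.6 to 31.8 below). Without the Pisd-ps1 chain the member share was 5.90% and the difference −0.587 points (−2.31 to 1.65). Members had the higher share on 6 of 19 chromosomes, and on 6 chromosomes no member had MOF, where the solitary shares ran from 4.15 to 9.85%. When solitary peaks were weighted to the members' classes of width and fold, their share was 6.31%. With only the higher 50% of MOF scores the difference was 1.57 points (0.152 to 3.52), an interval above 0, and it was 0.962 (−0.352 to 2.82) once the Pisd-ps1 chain was also left out.

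The share of members with MOF rose with the fragment count. Among members of 19 or more fragments, 36 of 398 (9.05%) lay on MOF, and among those below, 5 of 219 (2.28%). Solitary peaks had 8.54% and 5.86% in the same classes. Below 19 fragments members were thus lower by 3.57 points (Newcombe interval −5.04 to −0.563), and from 19 upward the difference was 0.508 (−2.34 to 3.97). The first of these rests on 5 members with MOF. Both intervals are over peaks and were not computed with the chain as the unit. All Pisd-ps1 members were in the upper class, and without them it held 31 of 391 (7.93%) and the difference was −0.609 (−3.33 to 2.75). The split at 19 fragments was chosen after the data were seen. Weighted to the members' counts, solitary peaks had MOF at 7.88%, or at 7.87% when weighted to the members without that chain.

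**Figure D4:**
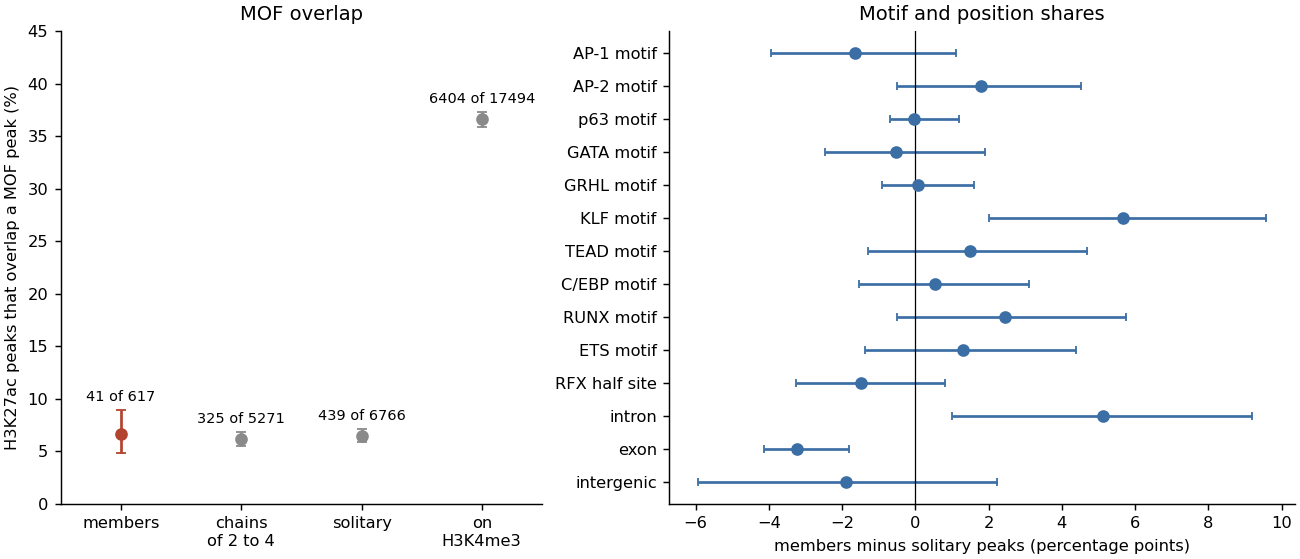
Left, share of H3K27ac peaks that overlap a MOF peak, in percent, with 95% exact intervals and counts. Right, members minus solitary peaks in percentage points, with 95% Newcombe intervals over peaks, for the share of summit windows with each motif and the share of centres in introns, exons and between genes. Members at 6.65% sit with the other distal peaks, far below the 36.6% of peaks on H3K4me3.

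The 41 members lay in 28 chains. Most of these chains, 19, had 1 member on MOF, 7 had 2, and the Pisd-ps1 and Gm4265 chains had 5 and 3. The Gm4265 chain (chr7:129964455-129991396) had 5 members, 26.9 kb of span and few repeated words (2.44%). Neighbouring members often shared a MOF peak, so 34 MOF peaks accounted for the 41 members. Counting every MOF peak in the spans gave 56 in 37 chains. Of these, 34 were on a member and 10 on neither H3K27ac nor H3K4me3. The density was 18.1 MOF peaks per Mb of span against 7.02 per Mb over chromosomes 1 to 19, in spans that were picked for their H3K27ac peaks and also held promoters. The median score of MOF peaks on members, a rank measure of unstated scale, was 618 against 580 for all MOF peaks, and their median width was 1086 bp against 567 bp. A wide peak is more likely to touch a member, so these medians are a description only, and the centre of a MOF peak lay inside 2.76% of members. Without the Pisd-ps1 chain the density was 16.7 per Mb, the median score 606 and the median width 977 bp.

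The 8 members with the highest MOF scores were led by the Pisd-ps1 peak (score 1681, 42.2% repeated words). An intronic peak of Egfr, the gene of the epidermal growth factor receptor, was second. It lay at chr11:16800243-16800889, 48.0 kb from the TSS, with a MOF score of 1220, a fold of 4.27 and 21 fragments. Peaks in Lypd6b and near Fggy scored 1015 each, and a peak within Nsf scored 962. The 2 Medag members shared a MOF peak of 957, and a peak 8.76 kb from Irf2bp2 had 910. Of these 8, the Pisd-ps1 and 1 Medag member contained repeated words, at 42.2 and 8.67%.

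Rfx2 was absent from the members. None of 617 overlapped one of the 325 Rfx2 peaks, which allows a share of up to 0.486% by a limit of 3 counts (exact upper bound 0.596%), against 0.0474% (6 of 12654) over all distal peaks and 1.67% (292 of 17494) of H3K27ac peaks on H3K4me3. At so low a background, a difference among 617 peaks was not detectable. The Rfx2 library was also the least deeply sequenced of the 4, by the study's own totals. Only 1 chain held an Rfx2 peak in its span, the one across Cirbp, which encodes a cold-inducible RNA-binding protein, and Midn. This Rfx2 peak, at chr10:80159669-80159970 with a fold of 5.28, lay on H3K4me3, and it was the closest to any member, 0.687 kb away. Within 50 kb of a member lay 5 Rfx2 peaks.

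Genes near the chains included 6 keratin genes and few other genes of the epidermal lists. Over all annotated genes, 186 of 24963 (0.745%) had a TSS within 50 kb of a chain, and 114 of 13666 genes with H3K4me3 at the promoter (0.834%). Inside a span lay the TSS of 35 genes (0.140%). Of 200 genes in 12 lists of epidermal structure, adhesion, differentiation, regulation and signalling, 12 (6%, exact interval 3.14 to 10.2) lay within 50 kb, with 8 chains nearest to them. Of 57 markers of other cell types 1 did (Vwf, 1.75%, 0.0444 to 9.39), and of 63 electron transport and ciliary genes 1 did (Ift43, 1.59%, 0.0402 to 8.53). Both intervals include the 6% of the epidermal lists, and the difference between lists was not tested. Among the 57 was Ptpn11, which was matched to the entry Syp and is not a marker of another cell type. The lists are descriptions, chosen with earlier results known, and listed genes that sit side by side share a chain.

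Keratins made up 6 of the 12. The type I keratin genes Krt14, Krt16 and Krt17 shared the chain chr11:100254268-100290680, which had 7 intergenic members and reached over the TSSs of Krt17 and Krt42. Krt16 lay 5.37 kb from it and Krt14, the basal partner of Krt5, 46.8 kb. The type II genes Krt5, Krt6a and Krt6b shared the chain chr15:101705832-101737263 of 6 members, with the TSS of Krt5 inside and those of Krt6a and Krt6b 11.5 and 25.5 kb away. These chains carried high counts on high backgrounds. The 2 strongest members of the Krt17 chain had 64 and 81 fragments over backgrounds of 29.5 and 29.9, the latter the highest of any member, which left folds of 2.13 and 2.66. In the Krt5 chain the members had 14 to 42 fragments and folds of 2.37 to 4.51. No MOF peak lay in either span. Krt1, Krt10, Krt2, Krt77, Krt15 and Krt80 were not within 50 kb of a chain. Without the keratins, 6 of 188 listed genes (3.19%) were within 50 kb.

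The other listed genes described here belonged to adhesion, signalling and transcription. Itgb4, the β4 integrin of hemidesmosomes, lay 4 kb from a chain of 5 peaks (summed fold 15.6). Egfr contained a chain of 6 peaks 28.1 kb from its TSS (23.4), with 1 member on MOF. Fos, an AP-1 factor, was 36.4 kb from a chain of 6 (24.8), which had the fewest summed fragments of all chains, 72. A chain of 5 (21.5) inside the ciliary gene Ift43 lay 3.07 kb from the start of that gene and 6.59 kb from Tgfb3, which encodes a TGF-β ligand. Vdr, the vitamin D receptor needed for the hair cycle, lay 25.5 kb from a chain of 5 inside its own gene (18.1). None of the 27 epidermal transcription factors, the 26 cornified envelope and barrier genes, the 17 desmosome and adherens junction genes, the 10 tight junction genes, the 15 Notch genes or the 22 Wnt genes was within 50 kb. Exact upper bounds for these lists ran from 12.8% for the transcription factors to 30.8% for the tight junction genes, and at the 0.745% of all genes a count of 0 is the likeliest in each of them, so these zeros show no depletion.

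**Figure D5:**
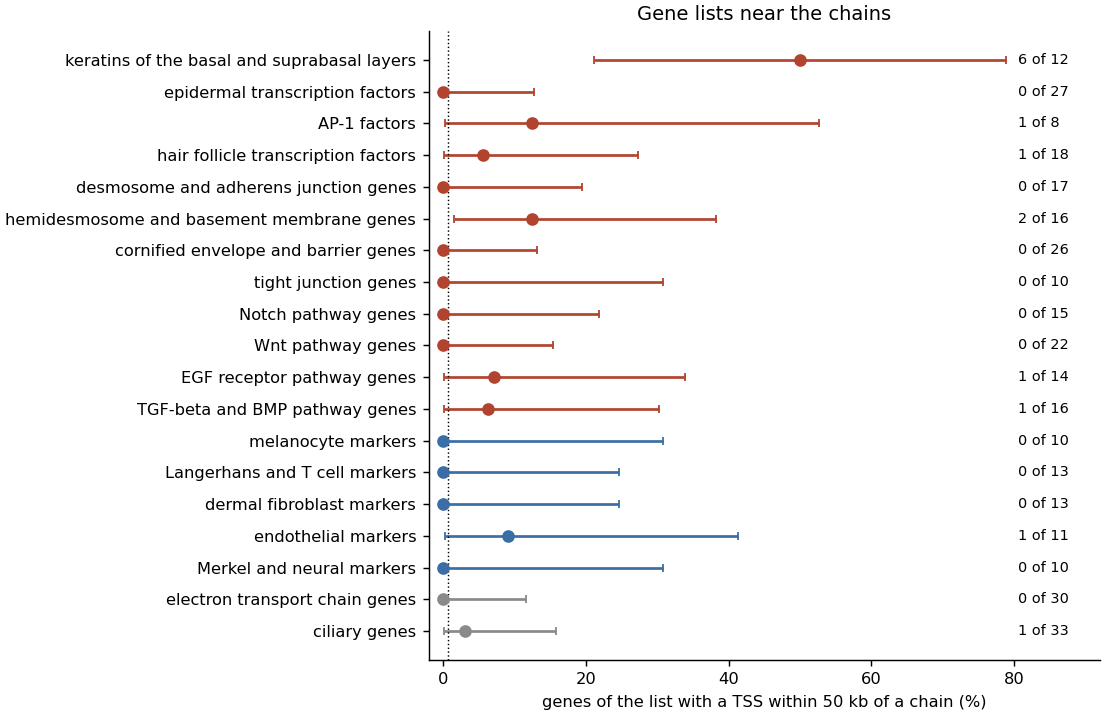
Share of each gene list with a TSS within 50 kb of a chain, in percent, with 95% exact intervals and counts, for epidermal and signalling lists (red), other cell types (blue) and electron transport and ciliary genes (grey). The dotted line is the 0.745% of all annotated genes, and the keratins, at 6 of 12 genes near 2 chains, are the highest.

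Marks at the promoters nearest to the chains were compared with those at other marked promoters, as a description. The 107 chains had 105 different nearest genes with H3K4me3 at the promoter (from 1 kb before a TSS to 100 bp past it). H3K27ac lay at 88 of them (83.8%), against 80.2% of the 13561 other marked genes, a difference of 3.58 points (Newcombe interval −4.66 to 9.45). MOF lay at 35 (33.3%, exact interval 24.4 to 43.2) against 43.0%, a difference of −9.71 points (−18.0 to −0.209). For the 114 marked genes within 50 kb the MOF share was 31.6% and the difference −11.5 (−19.3 to −2.43). These are 2 of 6 intervals not adjusted for their number, the first ends close to 0, and genes near the same chain are not independent. The widest H3K4me3 peak at the promoter had a median of 1483 bp for the nearest genes and 1322 bp for the others, but 1274 bp for the genes within 50 kb. Rfx2 lay at 1 of the 105 promoters (0.952%), against 2.30% of the other marked genes, a difference of −1.35 points (−2.18 to 2.90). Among the listed genes described above, MOF lay at the promoters of Fos, Egfr, Vdr and Krt14.

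For motifs of epidermal transcription factors other than KLF, no difference between members and solitary peaks was detectable. Windows of 100 bp on either side of the summit were searched on both strands. AP-1 (TGANTCA, bound by Fos and Jun proteins) was found in 63 of 617 members (10.2%, exact interval 7.94 to 12.9), 11.9% of solitary peaks and 5.17% of peaks on H3K4me3. TEAD (CATTCC) was found in 15.7%, 14.2% and 9.23%, RUNX (TGTGGT) in 17.7%, 15.2% and 9.56%, and the motif of GATA factors (letters AGATAA) in 7.46%, 8% and 3.42%. C/EBP (TTGCNNAA) was found in 8.59%, 8.05% and 4.81%, GRHL (AACCNGTT) in 2.27%, 2.2% and 1.20%, and p63 (a pair of CATG with 6 bases between them) in 1.13%, 1.17% and 0.377%. ETS (GGAAGT) was found in 14.3%, 13.0% and 13.7%. The RFX motif (GTTGCC) was in 6.32%, 7.80% and 8.33%, and AP-2 (GCCNNNGGC) in 10.5%, 8.75% and 18.8%.

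The interval of the difference between members and solitary peaks included 0 for 10 of the 11 motifs. KLF (CCNCNCCC), a GC-rich letter pattern of Krüppel-like factors, was the exception, with 31.1% of members, 25.4% of solitary peaks and 46.5% of peaks on H3K4me3. The difference was 5.68 points (Newcombe interval 2 to 9.58, and 1.88 to 9.48 with the chain as the unit). GC content moved with it, with a median of 53.2% in members and 51.2% in solitary peaks. Solitary peaks weighted to the members' 5 GC classes had KLF in 28.8%, which left a difference of 2.30 points. With 11 intervals not adjusted for their number, this is a description. No motif contains another whole motif in its fixed letters, but matches can overlap. A match is a run of letters and shows no binding.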

How the data were processed

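Per the labels, epidermal cells of wild-type mice at postnatal day 0.5 were used for MOF ChIPseq and for Cut&Run with the other antibodies. The authors aligned reads to mm10 with Bowtie2 and called peaks with MACS2 sample by sample. A control library is not given in the sources used here. The deposited H3K27ac, H3K4me3 and Rfx2 lists give a fold enrichment (ratio), a −log10 p-value and −log10 q-value and a summit offset for each peak. The deposited MOF list gives only a score, used as a rank. With 17287 peaks on chromosomes 1 to 19 it is longer than the study's count for MOF, so it may be another call, and every MOF share depends on it. The labels attach the H3K4me3 list to the repeat sample, but its name lacks that mark. The lists hold no read totals. The study states them, with the fewest for Rfx2 among the lists used, and they were not used here.

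Coordinates were used with GRCm38.p6 and its curated RefSeq transcripts. No peak ended beyond a chromosome, and a TSS was found within 1 kb for 53.0% of H3K4me3 summits. Overlap meant at least 1 bp, and neighbours were joined at gaps of at most 12.5 kb. Summit counts were recovered from fold and p-value with SciPy 1.17.1, and overlaps, chaining and recovery were tested on simulated data. Shares have 95% exact (Clopper-Pearson) intervals, differences Newcombe intervals, and chain-level intervals a ratio estimator. Words of 31 bases were counted over the assembly. Of the gene lists, 2 of 324 entries matched no single gene. The entry Syp, meant as a neural marker, was matched to Ptpn11. One listed gene is counted but not reported here by name.

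The members, gene lists and motifs were chosen with earlier results of these data known. Named were the 12 chains of highest summed fold and the 5 with most peaks, the 8 members of highest fold, the 8 with the highest MOF score, and up to 4 genes of each list within 50 kb of a chain. Beyond this rule, all keratins near chains were named after their values were seen. With 1 list for each antibody, no replicate test was possible.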

Additional observations from a re-analysis of the deposited data

How the results depend on the processing

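With 1 list for each antibody, every alternative changes a choice and none a replicate. No paired analysis was possible because the result comes from single peak lists, without replicates. The gap decided how many members there were. At a gap of 5 kb there were 26 members in 5 chains, with 23.1% in introns and 0% of chains across a TSS, 0% of epidermal and signalling genes lay within 50 kb, and the intron difference turned to −26.5 points (−38.6 to −7.51). At 25 kb there were 2338 members in 359 chains, with 45.7% of chains across a TSS and 16% of the listed genes near. Chains of 4 or more gave 1245 members in 264 chains and 11% of listed genes. Chains of 8 or more gave 65 members in 7 chains, 67.7% in introns and 0% of listed genes. From the higher 50% of H3K27ac peaks by q came 12 members in 2 chains, with MOF on 0%, a MOF difference of −8.84 points (−10.1 to 15.4), 83.3% in introns, 100% of chains across a TSS and 0% of listed genes. Without peaks within 1 kb of H3K4me3 there were 385 members in 68 chains, 4.42% on MOF and 58.4% in introns. Without peaks within 2.5 kb of a TSS, 11.4% of chains spanned one. Breaking chains at H3K4me3 peaks left 323 members in 57 chains. MOF lay within 1 kb of 9.08% of members and had its centre inside 2.76%. With the higher 50% of MOF scores, 4.38% of members were on MOF and the difference was 1.57 points. Rfx2 lay within 1 kb of 1 member. On protein-coding transcripts 48.9% of members were intronic. In place of the distance of 50 kb, a TSS inside a span was found for 1% of listed genes. AP-1 was found in 28% of members with 250 bp on each side and in 22.7% over the whole peak. Of 19 alternatives for the MOF difference, 17 gave an interval and 1 of these excluded 0. The difference among peaks below 19 fragments, whose interval over peaks also excluded 0, is not counted among these alternatives. Added after the data were seen were the alternatives on repeated words, the chain with most MOF, the chain as the unit, summit counts and GC content. In each case above the cause was not tested.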
